A study of Saccharomyces cerevisiae with 3 samples.

Results

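The genes described here encode the aminoacyl-tRNA synthetases of budding yeast, Saccharomyces cerevisiae, with 19 genes on the cytosolic side and 13 on the mitochondrial side. They were taken by name from a list of 32 genes, all of which had a probe on the arrays, out of 5598 genes measured in all. The cytosolic side holds 18 genes for enzymes or enzyme subunits and ARC1, which encodes a tRNA-binding partner of 2 of them. In the study a gcr1 null mutant and its wild type were grown in YEP medium with 3% pyruvate, and RNA of both strains was hybridised to the same 2-colour Agilent array just before glucose was added (0 min) and again 20 and 60 min later. GCR1 encodes an activator of glycolytic genes, and the 2 strains shared medium and sampling times. The labels name neither the strain background nor the null allele.

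Each synthetase joins 1 amino acid to the tRNAs that read its codons, and so supplies the ribosome with charged tRNA. Yeast cells translate in both the cytosol and the mitochondrial matrix. For most amino acids a separate nuclear gene encodes the mitochondrial enzyme, whose protein is imported. On the list, alanine, glycine, histidine and valine each have 1 gene that provides both enzymes. The enzymes fall into class I and class II, which have unrelated catalytic folds. Uncharged tRNA is also a signal, since it activates the kinase Gcn2 and through it translation of the transcription factor Gcn4.

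All values are log2 ratios of the 2 strains, so that 1.0 in size is 2-fold. With a single array for each time point, no value has a replicate, a standard deviation between cultures or a test. The labels do not state which strain is the numerator. The titles name the null mutant and the design names it first, which makes mutant over wild type the likely direction, but the deleted gene itself goes against it: the ratio of GCR1 (YPL075W) was positive on each array, at 0.97, 0.91 and 1.51 in order of time. Whether its probes lie in the deleted part is not known from the labels. Values are therefore called positive or negative. A ratio does not say in which strain a transcript moved, and in bulk RNA fewer expressing cells and less RNA per cell cannot be told apart. No time point analysed here was repeated with the dyes swapped, and a dye effect of a single probe cannot be told apart from a strain difference.

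The error that could be measured is that between probes. Of the 32 genes, 24 had 2 probes and 8 had 1. The median gap between the 2 probes of a member was 0.06, 0.10 and 0.11 on the arrays at 0, 20 and 60 min. The widest gaps were 0.54 for ISM1 at 0 min, 0.47 for MSM1 at 20 min and 0.33 for MSD1 at 60 min. Over all genes with 2 probes, 95% of gaps were below 0.41, 0.48 and 0.38. Probes of 1 gene read the same labelled RNA, so these gaps leave out the variation between cultures, extracts and arrays. The median of all genes stood at 0.07, -0.08 and 0.05, near 0 on each array.

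On pyruvate the synthetase genes of both compartments lay close to equal levels in the strains, and at 60 min after glucose the compartments had separated. The cytosolic median was 0.06, -0.22 and -0.87 in order of time, the last a 1.82-fold difference. The mitochondrial median was -0.11, -0.27 and 0.12. The cytosolic median minus the mitochondrial one was therefore 0.17, 0.05 and -0.99. All genes were also closer together at 0 min, with a median absolute deviation of 0.21, 0.665 and 0.63 in order of time. With the arrays scaled to equal spread, the difference between the sides was 0.36, 0.04 and -0.70. At 60 min all 19 cytosolic genes were below 0, on all 33 of their probes, and 4 of 13 mitochondrial genes were, while 47.9% of all genes measured were below 0 on that array. The ranges still overlapped at 60 min, since 10 of 13 mitochondrial genes lay above the highest cytosolic gene and the other 3 among the upper cytosolic genes. The enzymes of a side are not replicates of a condition, and this separation was not tested.

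**Figure D1:**
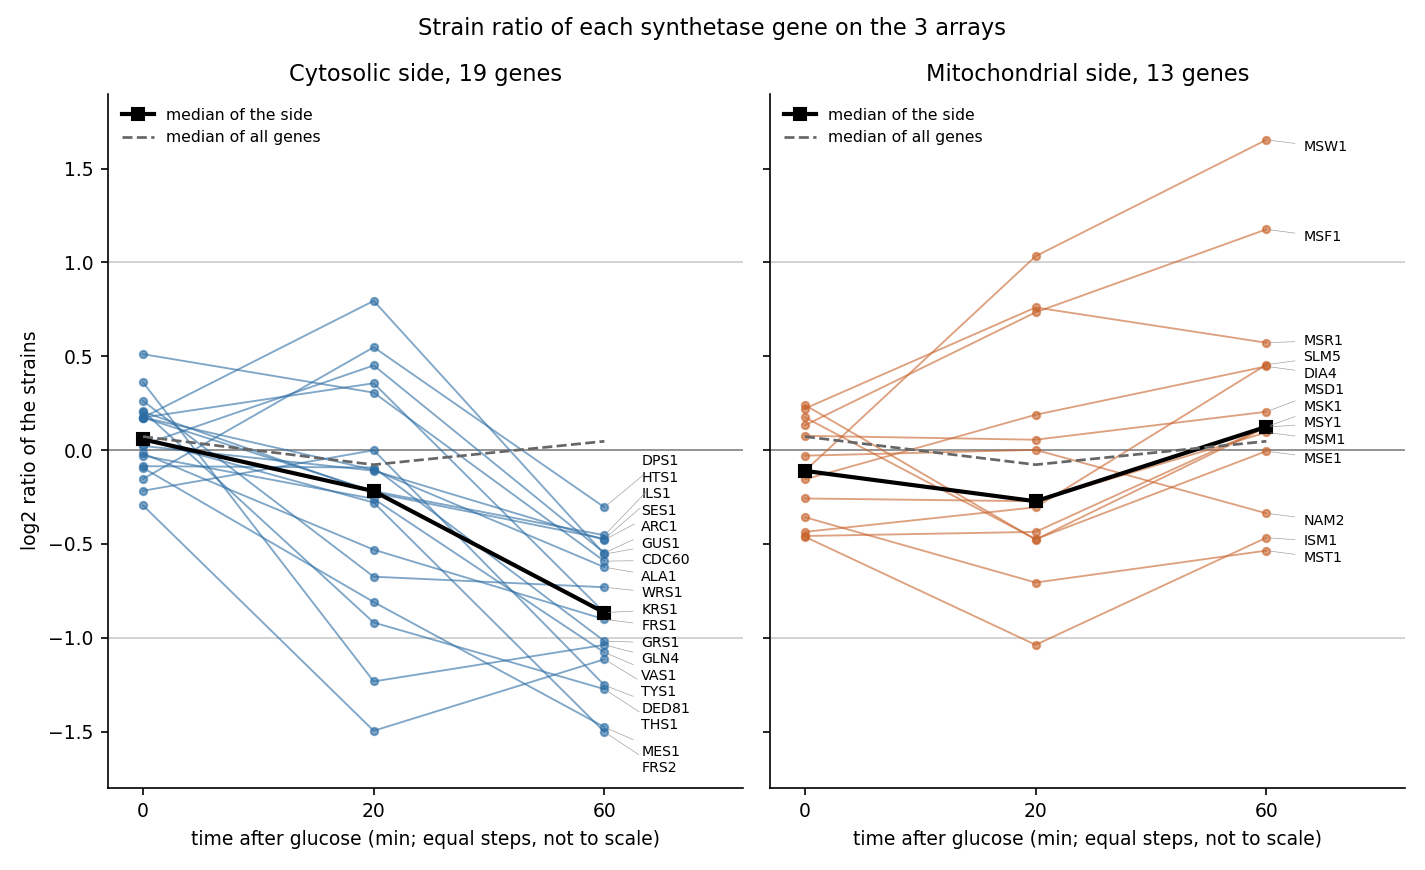
Log2 ratio of the strains (vertical axis) for each cytosolic gene (left, 19 genes) and each mitochondrial gene (right, 13 genes) on the arrays at 0, 20 and 60 min (horizontal axis, equal steps). Thin lines join the 3 values of a gene, the black line is the side's median and the dashed line the median of all genes. The cytosolic lines end between -1.50 and -0.30 at 60 min and the mitochondrial lines between -0.54 and 1.65.

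At 0 min no member was 2-fold apart between the strains. On that array 2.25% of all genes reached 2-fold on the negative side and 1.09% on the positive side. The cytosolic genes ran from -0.29 for TYS1, tyrosyl-tRNA synthetase, to 0.51 for CDC60, the leucyl enzyme, and 18 of 19 lay within 0.5 of 0. The mitochondrial genes ran from -0.46 for ISM1, the isoleucyl enzyme, to 0.24 for MSY1, the tyrosyl enzyme, and all 13 lay within 0.5 of 0. Below 0 were 7 of 19 cytosolic and 8 of 13 mitochondrial genes, against 40.8% of all genes. For most members with 2 probes the value was larger than the gap between them, as for CDC60, whose probes were 0.01 apart, but the variation between arrays was not measured.

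At 20 min the cytosolic genes were spread over a range of 2.29, against 0.81 at 0 min, with members on both sides of 0. At least 2-fold negative were 2 of 19, against 16.5% of all genes, and 0 of 19 were at least 2-fold positive, against 17.1%. Below 0 were 14 of 19, against 52.9%. TYS1 had -0.29, -1.50 and -1.11 at 0, 20 and 60 min. GLN4, the glutaminyl enzyme and the only glutamine enzyme of the list, had 0.36, -1.23 and -1.04. Both genes reached their lowest value at 20 min, the only 2 cytosolic members to do so, and both have a single probe. THS1, the threonyl enzyme, had 0.21, -0.92 and -1.27, and MES1 (YGR264C), the methionyl enzyme, had -0.10, -0.81 and -1.48, so that both were well below 0 by 20 min and lower still at 60 min. WRS1, the tryptophanyl enzyme, had 0.26, -0.67 and -0.73, and nearly all of its shift was present at 20 min.

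Positive at 20 min were 5 cytosolic genes. GUS1, the glutamyl enzyme, had 0.17, 0.80 and -0.56, and its probes agreed to within 0.01 at 20 min. DPS1, the aspartyl enzyme, had -0.15, 0.55 and -0.30. ARC1 had 0.03, 0.45 and -0.55, close to the course of GUS1. KRS1, the lysyl enzyme, had 0.17, 0.36 and -0.87. CDC60 had 0.51, 0.31 and -0.59 and was the only one of the 5 that was lower at 20 min than at 0 min. All 5 had crossed to the negative side at 60 min, and the lowest of them there was KRS1.

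By 60 min the cytosolic genes had drawn together on the negative side, with a range of 1.20 from FRS2 (YFL022C) at -1.50, a 2.83-fold difference, to DPS1 at -0.30, a 1.24-fold difference. At least 2-fold negative were 8 of 19, against 13.6% of all genes, and 0 were at least 2-fold positive, against 16.2%. The 8 were FRS2, MES1, THS1, DED81 (asparaginyl, -1.25), TYS1, VAS1 (valyl, -1.08), GLN4 and GRS1 (glycyl, -1.02). GRS1 and GLN4, at -1.02 and -1.04, lay just inside the threshold, and FRS1, at -0.90, was the next gene outside it. Among all genes on the array FRS2 stood with 6.04% of genes lower, MES1 with 6.25% and DPS1 with 35.0%. The cytosolic genes were thus in the lower part of the array but not at its extreme. The 4 genes nearest to 0 after DPS1 were HTS1 (histidyl), ILS1 (isoleucyl), SES1 (seryl) and ARC1, from -0.45 to -0.55, and their order is inside the probe error.

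**Figure D2:**
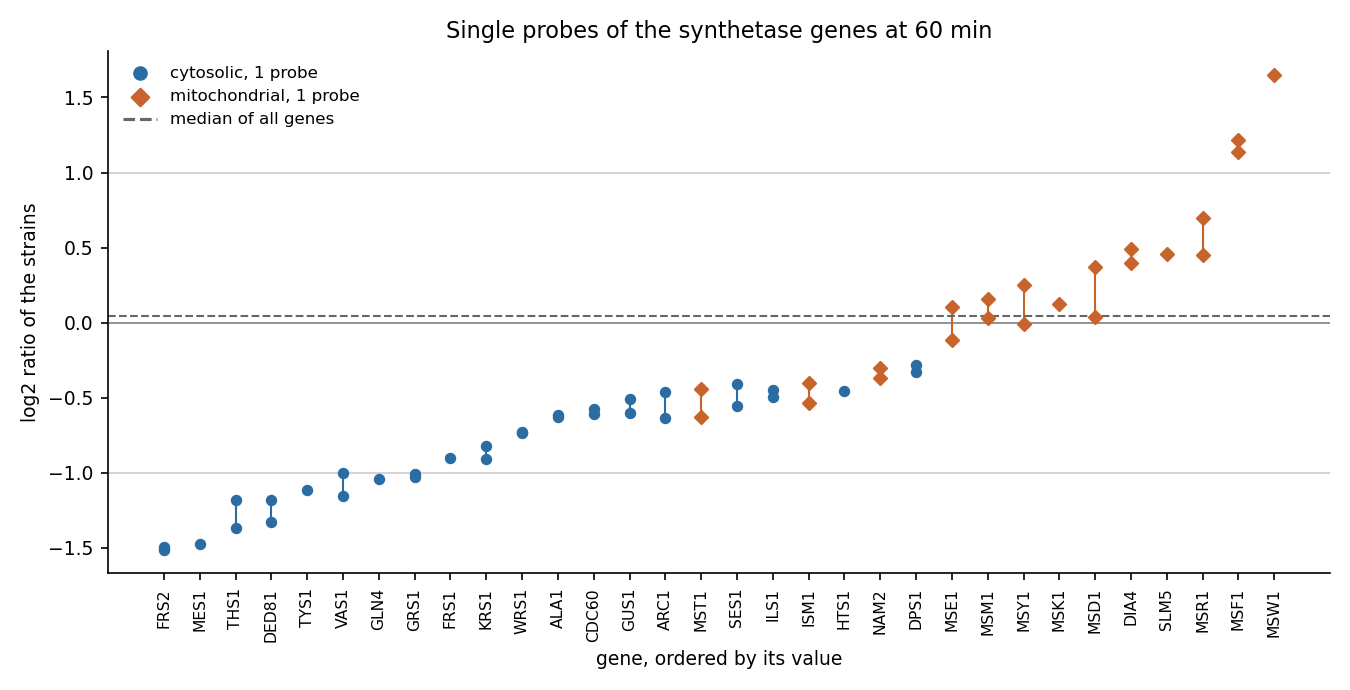
Log2 ratio of the strains at 60 min (vertical axis) for each single probe of the 32 genes, ordered by the gene's value (horizontal axis). A vertical line joins the 2 probes of a gene, grey lines mark 2-fold and the dashed line the median of all genes. All 33 cytosolic probes lie below 0, and the 3 lowest mitochondrial genes, MST1, ISM1 and NAM2, lie among the cytosolic ones.

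The step from 20 to 60 min carried most of this separation. In that step 17 of 19 cytosolic genes became more negative, with a median change of -0.67, and 4 of 19 by at least 2-fold. Over all genes 41.3% changed in that direction, 10.2% by at least 2-fold, and the median change was 0.16. The largest changes were those of GUS1 (-1.35), DED81 (-1.25), FRS2 and KRS1 (-1.22 each), and the exceptions were TYS1 (0.38) and GLN4 (0.20). DED81 had -0.22, -0.001 and -1.25, so its whole shift came after 20 min. GRS1 behaved alike, with -0.09, -0.09 and -1.02. Among the mitochondrial genes 11 of 13 became more positive, with a median change of 0.44, and 0 of 13 by 2-fold, against 8.45% of all genes. The step from 0 to 20 min was mixed. It was negative for 14 of 19 cytosolic genes and 6 of 13 mitochondrial genes, against 53.7% of all genes, with median changes of -0.28 and 0.02. At least 2-fold negative in that step were GLN4 (-1.59), TYS1 (-1.20) and THS1 (-1.13), against 16.4% of all genes, and MSW1 (1.14) was at least 2-fold positive, against 16.1%. The change to 20 min and the change from it share the 20 min array.

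Partners in one protein complex did not always stand together. The cytosolic phenylalanyl enzyme is built from the products of FRS1 and FRS2. FRS1 had -0.02, -0.53 and -0.90, and FRS2 had 0.06, -0.28 and -1.50. The subunits differed by 0.60 at 60 min, more than 95% of probe gaps, and FRS1 has a single probe. Arc1 binds the methionyl and glutamyl enzymes, MES1 and GUS1. GUS1 minus ARC1 was 0.15, 0.34 and -0.01 on the 3 arrays, while MES1 minus ARC1 was -0.12, -1.26 and -0.93. GUS1 and ARC1 were thus above 0 at 20 min with MES1 below it, and all 3 were negative at 60 min.

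The 4 listed genes whose products serve both compartments lay with the cytosolic genes. At 60 min GRS1 and VAS1 had the values given above, ALA1, the alanyl enzyme, had -0.62, and HTS1 had -0.45. Their median was 0.07 at 0 min, -0.16 at 20 min and -0.82 at 60 min, beside 0.12, -0.25 and -0.88 for the 14 genes of enzymes that act in the cytosol. At 20 min these 4 were packed between -0.26 and -0.09, whereas the 14 ranged from -1.50 to 0.80. By enzyme class, the cytosolic median at 60 min was -0.88 for the 8 class I genes and for the 10 class II genes alike. At 20 min the class I genes had a median of -0.47 and included both genes beyond 2-fold, and the class II genes had -0.11.

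The mitochondrial genes lay on both sides of 0 on each array. Their range was 0.70 at 0 min, 2.07 at 20 min and 2.19 at 60 min, and unlike the cytosolic range it did not narrow between 20 and 60 min. The spread of all genes also widened after glucose, with a median absolute deviation of 0.21, 0.665 and 0.63 in order of time. At least 2-fold positive were 1 of 13 at 20 min and 2 of 13 at 60 min, MSW1 and MSF1, near or below the 17.1% and 16.2% of all genes. At least 2-fold negative were 1 of 13 at 20 min, ISM1, and 0 at 60 min, against 16.5% and 13.6% of all genes. MSW1 (YDR268W), the tryptophanyl enzyme, had -0.11, 1.03 and 1.65, a 3.15-fold difference at 60 min with 93.0% of genes lower. These values of MSW1 rest on a single probe. MSF1 (YPR047W), the phenylalanyl enzyme, had 0.13, 0.73 and 1.18, and both of its probes were above 1.0 at 60 min. MSR1, the arginyl enzyme, had 0.22, 0.76 and 0.57. DIA4, a seryl enzyme, had -0.16, 0.19 and 0.45. These 4 were positive at both times after glucose, and all but MSR1 were highest at 60 min.

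Another group of mitochondrial genes was negative at 20 min and near 0 or positive at 60 min. SLM5, the asparaginyl enzyme, had -0.44, -0.30 and 0.46, the largest change of the side from 20 to 60 min (0.76). MSK1, the lysyl enzyme, had -0.46, -0.44 and 0.12. MSY1 had 0.24, -0.48 and 0.12, and MSE1, the glutamyl enzyme, had 0.17, -0.47 and -0.01, so that both were lower at 20 min than on the other arrays. MSM1, the methionyl enzyme, had -0.26, -0.27 and 0.09. MSD1, the aspartyl enzyme, stayed near 0 on each array, at 0.08, 0.05 and 0.20. MSE1 at 20 min and MSY1 at 60 min had values typical of very low spot signals, that is, close to a ratio of small whole numbers. Leaving MSE1 out moved the mitochondrial median at 20 min from -0.27 to -0.14.

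Negative at 60 min were MST1, ISM1 and NAM2, with MSE1 just under 0. MST1, the threonyl enzyme, had -0.36, -0.71 and -0.54 and was negative on every array. ISM1 had -0.46, -1.04 and -0.47. NAM2 encodes the leucyl enzyme, which also takes part in splicing of mitochondrial introns. It had -0.03, 0.001 and -0.34, and was the only mitochondrial gene with its lowest value at 60 min. Only NAM2 and MSR1 became more negative from 20 to 60 min on this side.

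**Figure D3:**
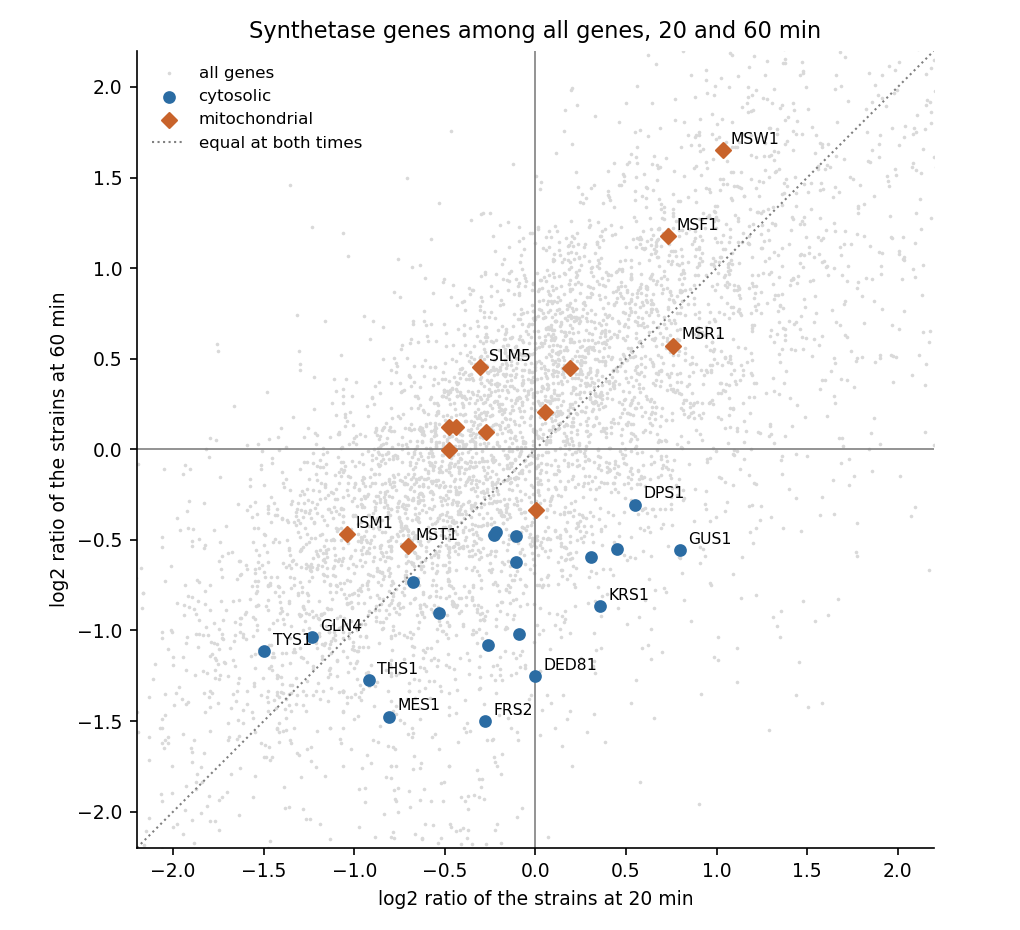
Log2 ratio of the strains at 20 min (horizontal axis) and at 60 min (vertical axis) for all genes (grey), cytosolic synthetase genes (blue circles) and mitochondrial ones (orange diamonds). Genes beyond 2.2 in size lie outside the frame. All cytosolic genes lie below the horizontal line at 0, and all but TYS1 and GLN4 lie below the dotted line of equal values, while 11 of 13 mitochondrial genes lie above it.

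The order of the genes at 20 min carried over to 60 min more closely on the mitochondrial side. Over the 13 mitochondrial genes Pearson's r between the 2 arrays was 0.86 and Spearman's rho 0.82, over the 19 cytosolic genes r was 0.56 and rho 0.58, and over 5593 genes r was 0.74 and rho 0.73. The arrays compared the same strains with the same probes, genes are not independent replicates, and the differences between these correlations were not tested.

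For 12 amino acids the list holds an enzyme for each compartment, which sets 2 genes of one task side by side on the same array. The cytosolic enzyme had the lower value for 4 of 12 amino acids at 0 min, 6 of 12 at 20 min and 12 of 12 at 60 min. The median difference, cytosolic minus mitochondrial, was 0.20, 0.05 and -0.96. At 0 min every cytosolic probe lay above every mitochondrial probe for 7 amino acids and below for 2, and at 20 min for 6 and 6. At 60 min every cytosolic probe lay below every mitochondrial probe for 11 amino acids. The exception was isoleucine, where ILS1 had 0.20, -0.23 and -0.47 and differed from ISM1 by -0.01 at 60 min, so that these 2 genes did not differ beyond the gap between probes. Among the genes of the 12 amino acids, FRS1, MES1, TYS1, MSK1, MSW1 and SLM5 have a single probe each.

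The widest differences at 60 min were those of tryptophan and phenylalanine, -2.38 each, or 5.22-fold for WRS1 against MSW1 and 5.20-fold for the mean of FRS1 and FRS2 against MSF1. In tryptophan the difference was 0.37 at 0 min and -1.71 at 20 min, and in phenylalanine -0.11 and -1.14. For these amino acids the mitochondrial gene was positive and the cytosolic gene negative at both later times. Asparagine had a difference of -1.71 at 60 min, methionine -1.57 and tyrosine -1.24. Lysine (-0.99), serine (-0.92), threonine (-0.74), glutamate (-0.55) and aspartate (-0.51) followed, and leucine had -0.26. Glutamate was more than 2-fold the other way at 20 min (1.27), with GUS1 above MSE1, but the value of MSE1 on that array was typical of very low signal and the size of this difference is uncertain. At 60 min 0 of 12 amino acids showed that direction. The tyrosine difference at 60 min is uncertain in size too, since MSY1 had a value typical of very low signal there. With tyrosine left out for that reason, the cytosolic enzyme was lower for 11 amino acids at 60 min.

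**Figure D4:**
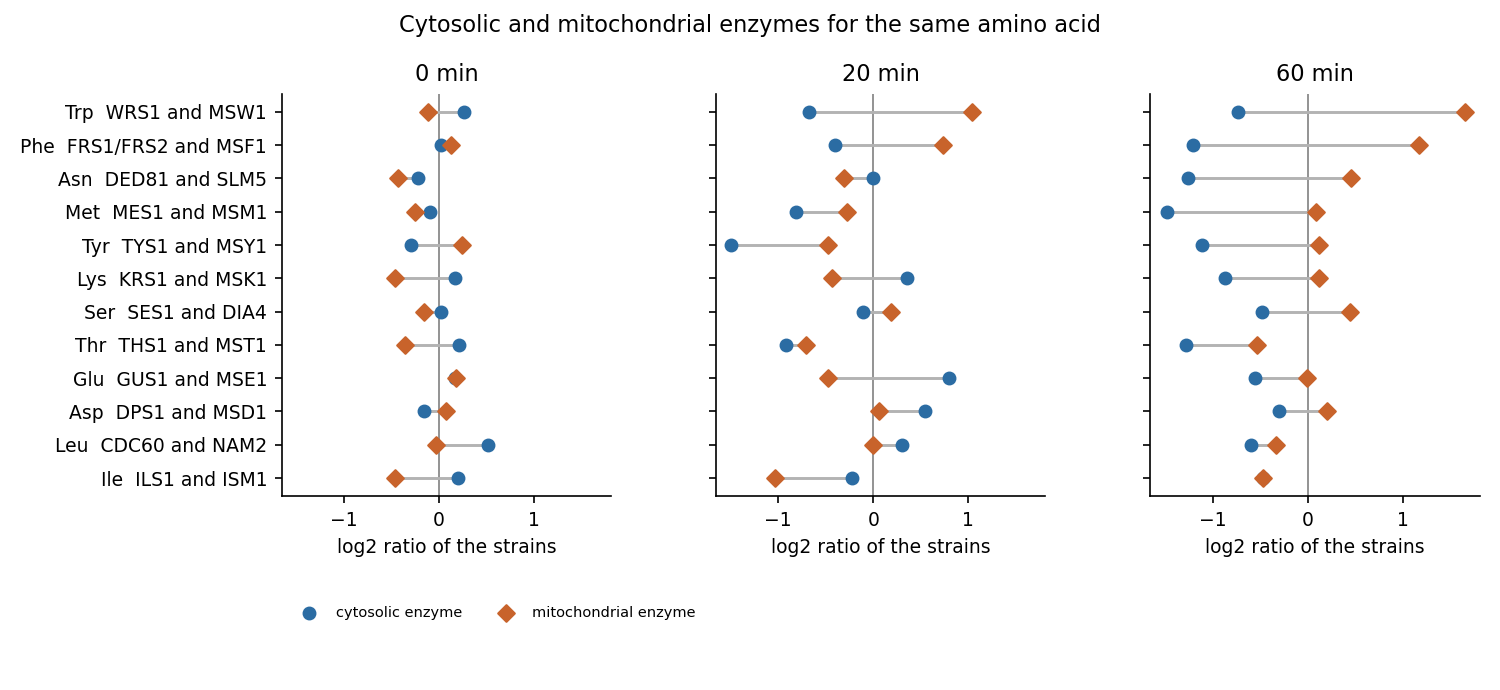
Log2 ratio of the strains (horizontal axis) of the cytosolic enzyme (blue circle) and the mitochondrial enzyme (orange diamond) for 12 amino acids (rows, ordered by their difference at 60 min) on the 3 arrays. The point for cytosolic phenylalanine is the mean of FRS1 and FRS2. At 60 min the circle lies left of the diamond in each row but that of isoleucine, where the points coincide.

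The values of the 2 enzymes of an amino acid had correlations near 0. Over the 12 amino acids Pearson's r between the cytosolic and the mitochondrial enzyme was -0.18 at 0 min, -0.02 at 20 min and -0.08 at 60 min, and Spearman's rho was -0.26, 0.12 and -0.01. The points on an array share its RNA and its scaling.

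Enzymes of the same kind that are not on the list add to this picture. The cytosolic arginyl (YDR341C), prolyl (YHR020W) and cysteinyl (CRS1) genes had -0.76, -2.24 and -1.24 at 60 min, all on the negative side. YHR020W, which has a single probe, was lower than any listed member, and at 20 min it had -1.63. YHR020W neighbours DED81 on the chromosome in the R64 assembly. With these 3 genes, 22 of 22 cytosolic genes were below 0 at 60 min, against 47.9% of all genes. Of the 22, 10 were at least 2-fold negative, against 13.6% of all genes. FMT1, for the formylation of mitochondrial initiator tRNA, had -0.14 at 20 min, a value typical of low signal, and -1.54 at 60 min. AIM10, which resembles prolyl enzymes and acts in mitochondria, had 0.28. GRS2, a copy of GRS1 that is little expressed in ordinary growth, was positive at 2.10 at 20 min and 1.75 at 60 min, and GRS1 minus GRS2 was -2.77 at 60 min. Yeast mitochondria make glutaminyl-tRNA by amidation of glutamyl-tRNA. The 3 genes of that amidotransferase, HER2, PET112 and GTF1, had 0.23, 0.39 and 0.32 at 60 min, all within 2-fold.

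Genes that act on tRNA before charging had another course, with lower values at 20 min than at 60 min. Of 47 measured genes for tRNA modification, 20 reached 2-fold on the negative side and 1 on the positive side at 20 min, against 16.5% and 17.1% of all genes, with a median of -0.87. The counts at 60 min were 9 and 3, against 13.6% and 16.2%, with a median of -0.35. TAD2, a subunit of the tRNA adenosine deaminase, had -2.69 and -2.15, and TYW1, of wybutosine synthesis, had -2.07 and -1.54. The methyltransferase TRM3 had -1.85 and -1.75, and the dihydrouridine synthase SMM1 had -1.67 and -1.16. From 20 to 60 min 3 of 47 of these genes became more negative, against 41.3% of all genes and 17 of 19 cytosolic synthetase genes. Of 21 genes for tRNA processing and export, 7 were at least 2-fold negative at 20 min, against 16.5% of all genes. The 4 of 21 at 60 min lay near the share of all genes, 13.6%. At least 2-fold positive were 1 of 21 at 20 min and 2 of 21 at 60 min, against 17.1% and 16.2% of all genes. The tRNA exporter LOS1 had -3.23 and -1.46, the 3′ processing enzyme TRZ1 had -2.41 and -0.96, the ribonuclease P subunit POP5 had -1.73 and -1.02, and RPM2, of the mitochondrial ribonuclease P, had 0.23 and -2.58. On the positive side of this list MSN5, another exporter of tRNA, had 1.01 and 1.27, and SEN15, of the tRNA splicing endonuclease, had 0.21 and 1.12. Of 3 genes for mitochondrial tRNA modification, MTO1 had -1.15 at 20 min and MSS1 had 1.20 at 60 min. The other one, SLM3, had -0.47 at 20 min, a value typical of low signal, and -0.65 at 60 min, and the median of the 3 at 60 min was -0.25.

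At 20 min the median of the cytosolic elongation genes differed in sign from that of the cytosolic synthetases. Both medians were negative at 60 min. The 9 elongation genes had medians of 0.23, 0.52 and -0.58. From 20 to 60 min 9 of 9 became more negative, against 41.3% of all genes. At 20 min 1 of 9 was below 0, TEF4 (-0.78), against 52.9% of all genes. At 60 min 7 of 9 were below 0, against 47.9%, and HEF3 (0.66) and CAM1 (0.003) were not. The copies TEF1 and TEF2, for the factor that brings aminoacyl-tRNA to the ribosome, had -0.43 and -0.21 at 60 min. They are near-identical, as are EFT1 and EFT2, and their probes may not tell them apart. CAM1, of the exchange factor, reached 1.19 at 20 min. The 6 mitochondrial translation factors had medians of -0.20, 0.42 and 0.36, with MEF2 at 1.44 at 20 min and -1.35 at 60 min. At 20 min IFM1 (0.11) and RRF1 (0.525) had values typical of low signal, so the median there is uncertain. MEF2, IFM1 and RRF1 have a single probe each. TUF1, the mitochondrial counterpart of TEF1 and TEF2, had 0.55 and 0.02.

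**Figure D5:**
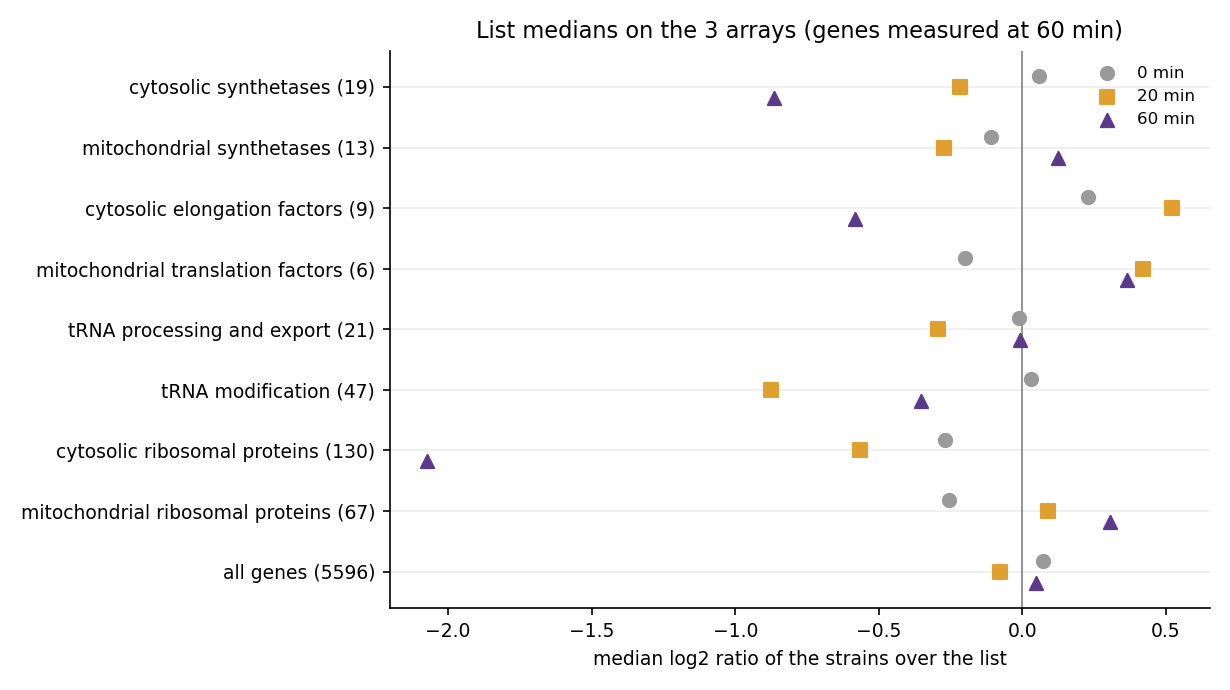
Median log2 ratio of the strains (horizontal axis) over the genes of each list (rows, number of genes in brackets) at 0 min (circles), 20 min (squares) and 60 min (triangles). The cytosolic synthetases, elongation factors and ribosomal proteins have their lowest median at 60 min and the tRNA modification genes at 20 min. At 60 min the mitochondrial synthetases, translation factors and ribosomal proteins have medians above 0.

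The ribosomal proteins, the lists most like these in compartment, gave a larger cytosolic value. At 60 min the median was -2.07 over 130 cytosolic ribosomal protein genes and 0.31 over 67 mitochondrial ones. At least 2-fold negative were 122 of 130 and 0 of 67, against 13.6% of all genes. At least 2-fold positive were 0 of 130 and 6 of 67, against 16.2%. The cytosolic synthetases, at -0.87, stood between the cytosolic ribosomal proteins and the median of all genes, and the mitochondrial synthetases, at 0.12, near all genes. At 20 min the medians were -0.56 and 0.09 for the ribosomal proteins. These differences between lists were not tested.

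Genes of the response to uncharged tRNA were also measured. GCN2, the kinase that binds it, had 0.08, -1.90 and -0.81, and GCN1, which acts with it, had -0.09, -0.91 and -1.73. GCN20, a partner of GCN1, had -0.79 at 20 min and -0.81 at 60 min. YIH1, an inhibitor of the activation of Gcn2, had 0.09, 0.12 and 0.43. GCN4 had 7.66, 7.83 and 7.40, the highest value of all genes measured on each array. Its value changed by less than 0.5 between arrays, so this difference between the strains was already present before glucose was added. What lies behind it was not tested. The arrays measured GCN4 RNA and not its translation. Whether GCN4 has a part in the synthetase values was not tested.

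The neighbours of the synthetase genes on the chromosomes had medians near 0 at 60 min. The nearest measured genes on either side of the cytosolic genes, 38 in all, had a median of 0.12 at 60 min, with 17 below 0, against 47.9% of all genes. Of these 38, 6 reached 2-fold on the negative side and 4 on the positive side, against 13.6% and 16.2% of all genes. The 26 neighbours of the mitochondrial genes had a median of 0.02, with 13 below 0, 4 beyond 2-fold on the negative side and 2 on the positive side. Among the 6 negative neighbours of cytosolic genes were YHR020W, named above, and genes of cytosolic ribosomal proteins, RPL22A beside FRS1 at -2.15 and RPS11A beside SES1 at -2.29.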

How the data were processed

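RNA of a gcr1 mutant and its wild type was compared on 3 arrays, 1 per time point, by competitive hybridisation per the labels (Cy5 in channel 1, Cy3 in channel 2). The deposited values are log2 ratios per probe. That base was inferred from ties, which lie at ratios of small whole numbers. The scanner, background correction, normalisation and build were not given in the sources used. Probe medians of the uncentred columns were 0.02, -0.15 and -0.08.

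Of 10807 probes, 9202 had 1 gene symbol in the platform annotation, 0 several and 1605 none. All 32 members matched a gene ID in RefSeq's R64 table. Probes of a gene were averaged, without a filter or recentring, with Python 3.11.15 and pandas 2.3.3. A gene was counted as 2-fold at a log2 value from 1.0 upward in size. The number of arrays limits the precision. A value matching a ratio of whole numbers up to 8 within 0.001, after the array's offset, was taken as low signal, which can also occur by coincidence.

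Members and lists were chosen with earlier results of these data known. Ribosomal protein lists were built from gene symbols and chosen after values were seen. Named genes were all members and, per tRNA list, up to 4 genes beyond 2-fold after glucose. Other genes of these lists, and all neighbours, were named after their values were seen. Counts and medians were checked on simulated data. Promoter motifs and protein sequences were not analysed here. Alternatives were other fold thresholds, centring, equal spread, low signal left out, single probes, means, and the cytosolic side without dual-targeted genes and ARC1.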

Additional observations from a re-analysis of the deposited data

Results flagged for a closer look

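Several values lay on opposite sides of 0 on 2 arrays and at least 2-fold apart. With 1 array per time point these differences were not tested, and those from 0 min share that array. From 0 to 60 min the log2 ratio changed by -1.56 for FRS2, -1.48 for THS1, -1.40 for GLN4, -1.10 for CDC60 and -1.04 for KRS1, and by 1.76 for MSW1. From 0 to 20 min it changed by -1.59 for GLN4, -1.13 for THS1 and 1.14 for MSW1. From 20 to 60 min it changed by -1.35 for GUS1 and -1.22 for KRS1. Medians of a side were flagged at a smaller difference, from 0.5 upward in size. The cytosolic median crossed from the positive to the negative side between 0 and 60 min, with a difference of -0.92, which is less than 2-fold.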

How the results depend on the processing

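No paired analysis was possible because each time point has 1 array. The 19 of 19 cytosolic genes and 4 of 13 mitochondrial genes below 0 at 60 min were the same counts under centring, equal spread and either single probe. Centring shifted all genes by at most 0.08. Of 199 values recomputed, 156 kept to within 1.5 times (counts) or the probe spread (medians), and the other 43 are given here. The sign changed for the cytosolic and mitochondrial medians at 0 min and for both measures of the difference between sides at 20 min, each of them about 0.11 or less in size as reported. The probe spread, about 0.11, is the only error available, and low signal limits MSE1 and MSY1.

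Equal spread, which enlarges the 0 min array, gave 3 mitochondrial genes 2-fold negative at 0 min. At 20 min it gave 0 cytosolic negative, 0 mitochondrial negative and 0 mitochondrial positive genes. At 60 min it gave 2 cytosolic negative genes and 1 mitochondrial positive gene. The mitochondrial median became -0.39 at 0 min and -0.13 at 20 min, and the cytosolic one -0.094 at 20 min and -0.64 at 60 min. The change from 0 to 20 min became -0.11 (cytosolic) and 0.50 (mitochondrial), and that from 20 to 60 min 0.23 (mitochondrial). The difference between sides became 0.36 at 0 min and -0.70 at 60 min, and over amino acids 0.42 and -0.68.

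At 1.5-fold, 20 min had 5 cytosolic negative, 1 cytosolic positive, 2 mitochondrial negative and 3 mitochondrial positive genes, and 60 min 13 cytosolic negative. At 3-fold these were 0 throughout at 20 min, and 60 min had 0 cytosolic negative genes and 1 mitochondrial positive gene. Centring, or the probe nearer to 0, left 0 mitochondrial negative genes at 20 min.

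With the probe nearer to 0, the mitochondrial median was 0.001 at 0 min and -0.037 at 20 min, and the cytosolic one -0.10 at 20 min. With the probe farther from 0, the mitochondrial median at 60 min was 0.25 and the difference between sides -1.16. Means gave -0.072 (20 min) and 0.27 (60 min) on the mitochondrial side, differences between sides of -0.17 and -1.13, and over amino acids -0.078 and -1.10. Without low signal the mitochondrial median at 20 min was -0.14, the difference between sides -0.083, and over amino acids -0.21. The small difference at 20 min thus has no settled sign.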
